A study of Mus musculus with 6 samples.

Results

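Defensins are small cationic peptides of innate immunity, and the 64 genes described here are the protein-coding genes of the mouse annotation (GENCODE M21, genome build GRCm38) whose symbol starts with Defa or Defb. They were 22 alpha-defensin and 42 beta-defensin genes of 21938 protein-coding genes. In the mouse intestine, alpha-defensins (cryptdins) are made by Paneth cells at the base of the crypts, are cut to their active form by the protease matrilysin (Mmp7) and are secreted into the crypt lumen. Beta-defensins are made by many epithelia, with a large group of them known from the epididymis, and Paneth cells are not their usual source. Beta-defensin genes lie in several groups in the genome, whereas the alpha-defensin genes form a single tandem array of closely related copies.

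Chromatin accessibility had been measured by ATAC-seq, in which a transposase tags open DNA, in dissociated crypts of 3 wild-type (WT) mice and of 3 Arid3a conditional knockout mice (cKO, Villin Cre-ERT2+/- with Arid3a fl/fl). The Villin promoter restricts the deletion to epithelial cells, so any stromal cell in the preparation kept Arid3a. Both genotypes received tamoxifen on 3 consecutive days, and crypts were taken 1 month after the first dose. The values are 1 list of called peaks per mouse, with 40492 to 58297 nuclear peaks each. Where 3 values are given for a genotype, they stand in the order of samples 1, 2 and 3. Age and strain were not given in the sources used here. Arid3a itself had a promoter peak in all 6 lists, so the peak calls did not check the genotype labels. Of 12 genes of crypt epithelium, 7 to 9 per list had a promoter peak, against 0 of 12 leukocyte genes in every list. In all 6 lists, 4 of the 12 crypt epithelium genes (33.3%) had a promoter peak, against 44.6% of all protein-coding genes. Mesenchymal and endothelial genes had one at 2 or 3 of 9 genes per list, and genes of the epididymis and male tract at 0 or 1 of 7. Promoter counts alone do not show that other cells were absent. In the gene body plus 5 kb, Itgam had a peak in 6 lists, Csf1r in 4, Ptprc and Cd3d in 1, and the other leukocyte genes in none. Of the mesenchymal and endothelial genes, Col1a1, Pdgfra, Pdgfrb, Acta2, Pecam1 and Kdr had one in 6 lists, Cdh5 in 2, and Col1a2 and Col3a1 in none.

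A peak was given to a gene when its summit, the point of highest signal, lay in the gene body or within 5 kb of it. Each peak was assigned once, to the gene with the nearest transcription start site (TSS) among all protein-coding genes in reach. A promoter peak had its summit between 1000 bp upstream and 100 bp downstream of a TSS.

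The sequences just upstream of the annotated 5′ ends show how the families differ. Defa37 had the least unique surroundings of the alpha-defensin genes, Defa35 had the promoter closest to it, Defa24 had the most unique surroundings, and Defb37 was the beta-defensin gene whose promoter carried a peak in every list. Each sequence holds the 150 bases before the 5′ end of the gene, read 5′ to 3′ on the strand of the gene from GRCm38.p6. Capitals mark the TCF word ATCAAAG (the reverse complement of CTTTGAT) and the TATA box.
Defa37: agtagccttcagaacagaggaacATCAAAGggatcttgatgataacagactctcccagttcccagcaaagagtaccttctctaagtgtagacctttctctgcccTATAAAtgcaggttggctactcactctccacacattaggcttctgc
Defa35: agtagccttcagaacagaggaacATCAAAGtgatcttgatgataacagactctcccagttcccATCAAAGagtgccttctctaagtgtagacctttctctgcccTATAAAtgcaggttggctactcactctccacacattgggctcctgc
Defa24: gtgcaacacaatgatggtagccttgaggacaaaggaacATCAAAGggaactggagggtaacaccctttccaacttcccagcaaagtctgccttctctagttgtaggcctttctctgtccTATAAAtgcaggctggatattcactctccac
Defb37: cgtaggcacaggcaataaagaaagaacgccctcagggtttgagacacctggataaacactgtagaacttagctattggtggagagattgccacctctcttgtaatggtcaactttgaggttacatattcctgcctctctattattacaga

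These stretches lie at chr8:21565236-21565385 (Defa37, plus strand), chr8:21064888-21065037 (Defa35, plus strand), chr8:21734344-21734493 (Defa24, plus strand) and chr8:18991056-18991205 (Defb37, minus strand). Although Defa37 and Defa35 are separate genes of the array, their 150 bases differed at 5 positions, counted from 1 at the first base printed, with the Defa37 base given first: G31T, G65T, A74G, A141G and T146C. The change G65T falls in the second of the capitalized TCF words of Defa35, which Defa37 therefore lacks. To ask how much of such sequence an aligned read could place, every 50-base word of the reference was searched for across the genome on both strands. No word of the Defa37 stretch occurred only once (0%), whereas 18.8% did in Defa35, 79.2% in Defa24 and 100% in Defb37.

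No alpha-defensin gene had a peak in any list. The 22 genes span chr8:21025545-21735471, from Defa21 to Defa24, and 21 of them lie on the plus strand and Defa29 on the minus strand. The number of alpha-defensin genes with a peak was 0 of 22 in each WT list and 0 of 22 in each cKO list. Among all protein-coding genes, 72.0% had a peak in at least 1 list. By list, this share was 62.7%, 66.3% and 67.3% in the wild-type mice and 68.0%, 65.0% and 66.4% in the knockout mice. The array was thus without a called peak in both genotypes, and no comparison of peak strength could be made there. A further 6 protein-coding genes of the array carry clone names in the annotation but overlap RefSeq genes named Defa38 to Defa43 (Gm14851, Gm15293, Gm15292, Gm7849, Gm7861 and AY761184). These 6, which were looked at after the first counts, had no peak in any list either.

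**Figure D1:**
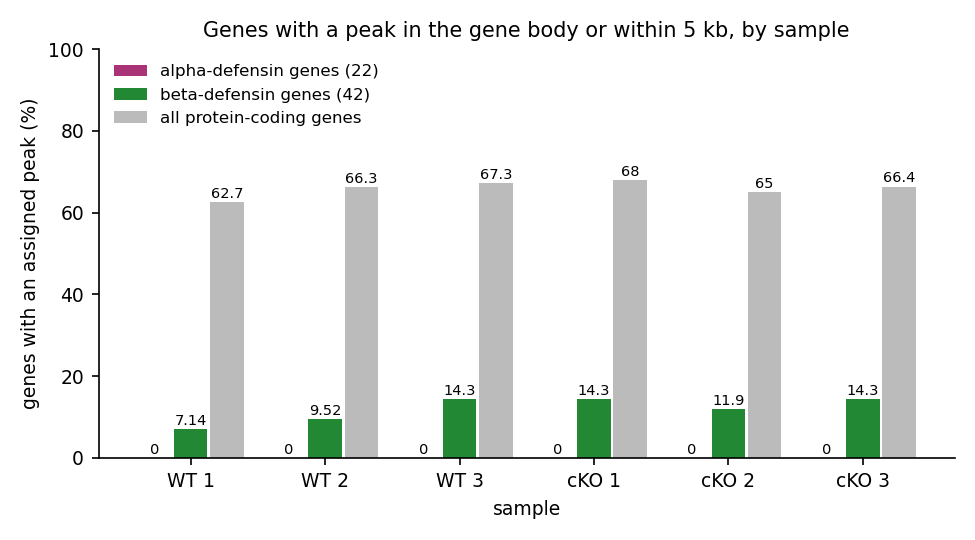
Percentage of genes with an assigned peak (y axis) in each of the 6 samples (x axis), for alpha-defensin, beta-defensin and all protein-coding genes, with the value printed above each bar. The alpha-defensin bar is at 0 in each sample, the beta-defensin bars lie between 7.14% and 14.3%, and those of all protein-coding genes between 62.7% and 68.0%.

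The stretch without a summit reached past the array on both sides. The last summit before it, taken over the 6 lists together, lay 77.8 kb before Defa21 and the first one after it 21.4 kb beyond Defa24, so 809 kb held no summit in any list. Of 302442 distances between neighboring summits in the pooled lists, 434 were at least as long. The pooled lists merge into 71286 consensus peaks, so many of these distances separate calls of the same peak in different lists. The peak that closes the stretch was called in each of the 6 lists, 19.7 to 19.8 kb before the start of Defb1. Its fold enrichment, the ratio of fragment pileup to local background given by the peak caller, was 6.12, 10.5 and 10.9 among WT lists, against 7.94, 8.43 and 9.84 among cKO lists. Because fold enrichment is not comparable between lists, it was also expressed as a percentile within its own list. The percentile of this peak was 60.8, 79.4 and 82.8 among WT lists, against 66.5, 72.1 and 85.1 among cKO lists, so the genotypes overlapped.

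Sequence in the array was mostly repeated. From 5 kb before Defa21 to 5 kb after Defa24 (720 kb, with no unknown bases), 20.4% of 50-base words occurred once in the genome, which amounts to 147 kb of word starts. For 100-base words this share was 39.6%. The stretch between Defb7 and Defa21 (1.52 Mb, 23.1% unknown bases) had a unique share of 36.9% and did hold peaks, 35, 23 and 25 in the WT lists, against 18, 26 and 22 in the cKO lists. Its highest count came from WT 1, the shortest list. The unique share was uneven along this stretch. Bins of 10 kb at -440.5, -640.5 and -1240.5 kb from the start of Defa21 held a summit in every list. Their unique shares were 10.1%, 10.55% and 28.1%. The bin at -1370.5 kb was 91.6% unique and held a summit in WT 1 only. The beta-defensin groups on either side were 82.7% unique from Defb40 to Defb7 and 85.2% unique from Defb1 to Defb13, and they held 1 to 5 and 0 to 2 peaks per list.

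**Figure D2:**
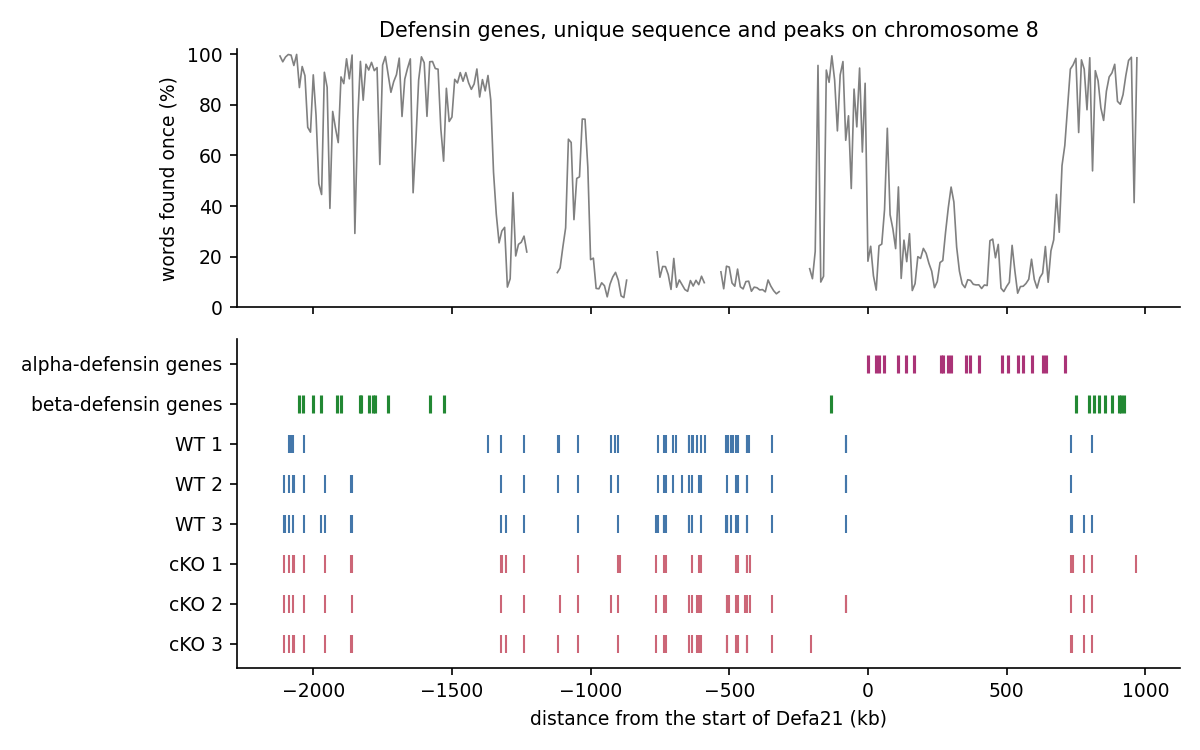
The upper panel plots the percentage of 50-base words found once in the genome, in bins of 10 kb, against the distance from the start of Defa21 in kb, with gaps where more than 50% of a bin is unknown sequence. The lower panel marks alpha- and beta-defensin genes and the peak summits of each sample on the same axis: no summit lies within the alpha-defensin array in any of the 6 samples, while the repeated stretch before it carries 18 to 35 per sample.

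Gene by gene, the unique shares of the families did not overlap. Over the gene body plus 5 kb on either side, 6.17% to 61.9% of 50-base words were unique at alpha-defensin genes, with a median of 17.3%. Beta-defensin genes ranged from 66.7% to 99.3% with a median of 94.9%, next to a median of 96.3% over the other 21874 protein-coding genes. With 100-base words the medians were 33.1%, 99.2% and 99.3%, in the same order. Of the alpha-defensin genes 21 of 22 were under 50% unique with 50-base words and 16 of 22 with 100-base words, and 0 of 42 beta-defensin genes were under 50% with either. Defa24, at the end of the array, was the most unique alpha-defensin gene, followed by Defa29 with 49.99%. The least unique were Defa37 with 6.17% and Defa23 with 7.27%. At the alpha-defensin promoters the median was 13.9%, and Defa36, Defa20 and Defa37 had 0% unique words between 1000 bp upstream and 100 bp downstream of the 5′ end. Reads from such sequence align to several places equally well. The alignment command stated for these data does not set the option of the pipeline that keeps reads with several alignments. How many reads were lost in the array was not tested.

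Across the genome, peak calls were rarer where sequence was repeated. A peak in at least 1 list was called at 14.6% of the 1390 protein-coding genes whose unique share was no higher than that of Defa24, and at 75.8% of the 20548 genes above it. At or below the alpha-defensin median this share was 7.87% of 737 genes. Among the 1037 genes that were no more unique than Defa24 and no longer than the longest defensin gene it was 10.1%. Size also went with peak calls: alpha-defensin genes are 790 to 1134 bp long, and among all protein-coding genes no longer than that 22.6% had a peak. With peak lists alone, calls missing because sequence is repeated and calls missing because chromatin is closed cannot be told apart. The authors also removed regions on a blacklist, and whether the array is among them was not tested, although that alone would leave it without a peak.

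**Figure D3:**
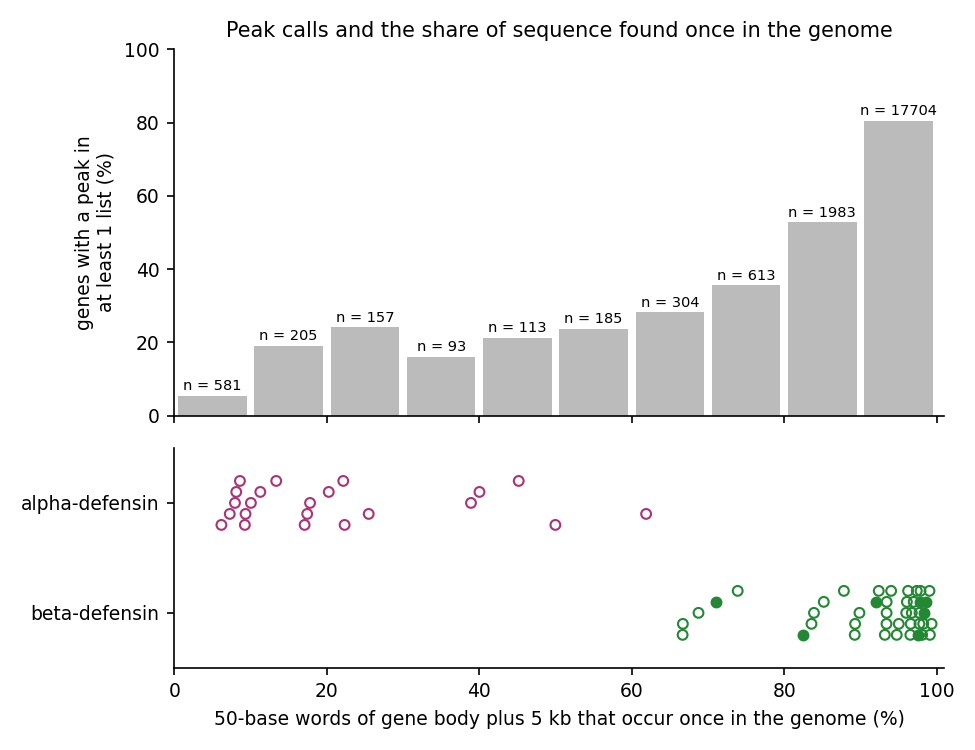
Bars give the percentage of protein-coding genes with a peak in at least 1 list, by the percentage of 50-base words of the gene body plus 5 kb that occur once in the genome (x axis, bins of 10 points, n genes per bin). Below, each circle is a defensin gene at its own unique share, filled where it had a peak in at least 1 list. Alpha-defensin genes lie between 6.17% and 61.9% and none is filled, and 7 of 42 beta-defensin genes are filled.

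Peaks at other genes of Paneth cells were counted beside the array. The list held secreted products as well as transcription factors, receptors and surface proteins of these cells. Of 31 genes found in the annotation (of 32 listed), 14, 18 and 16 had a promoter peak among WT lists, against 17, 14 and 18 among cKO lists. A promoter peak was called in 6 lists at 11 of these genes (35.5%), among them Tcf7l2, Fzd5, Wnt3 and Xbp1, and in no list at 10. Over all protein-coding genes, 44.6% had a promoter peak in 6 lists and 61.7% in at least 1. Of the granule and antimicrobial products, Lyz2, Mmp7, Mptx1, Mptx2, Ang4, Ang5, Ang6 and Reg3a were all among the 10 without one. Others of these products did have a promoter peak, Lyz1, Itln1 and Reg3g in 5 lists each and Reg3b in 2. In the wider window of the gene body plus 5 kb, a grouping made after the values were seen, Mmp7 and Itln1 had a peak in 6 lists, Lyz1 and Reg3g in 5, Reg3a in 4 and Reg3b in 3, with unique shares from 71.7% at Itln1 to 98.4% at Reg3b. Lyz2, Mptx1, Mptx2, Ang4, Ang5 and Ang6 had none in any list, with unique shares from 55.0% at Ang5 to 89.6% at Mptx2. Paneth cells are a minority of the cells of a crypt, and in a mixed sample few cells with open chromatin and weak opening in each cell cannot be told apart.

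The alpha-defensin promoters share sequence words that the peak calls do not show. Promoters were searched from 250 bp upstream to 50 bp downstream of the annotated 5′ end, on both strands and without mismatch, with the TATA box (TATAAA) sought on the strand of the gene within 50 bp upstream. TCF factors are the DNA-binding partners of beta-catenin in Wnt signaling and are known to act at Paneth cell defensin promoters. The TCF words were CTTTGAA or CTTTGAT, and likewise with the ending changed, CTTTGTA or CTTTGTT. One of them was found at 21 of 22 alpha-defensin promoters (95.5%), at 5 of 42 beta-defensin promoters (11.9%) and at 16.05% of the promoters of all protein-coding genes. All 34 TCF words in the alpha-defensin promoters read ATCAAAG on the strand of the gene. They stood singly at 8 genes and as a pair at 13, always 40 bp apart within a pair, and Defa29 had none. A TATA box was found at 13 of 22 alpha-defensin promoters (59.1%), 5 of 42 beta-defensin promoters (11.9%) and 3.25% of all promoters. At Defa17 and Defa30 the letters CTATAAA began 54 bp upstream, and at Defa5, Defa31 and Defa34 75 bp upstream. They lay beyond the 50 bp searched and were not counted. In the 12 alpha-defensin promoters with a TCF word and a counted TATA box, the outer TCF word began 81 bp before the TATA box.

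ARID3 words (ATCAAA or ATTAAA), the letters linked to the family of the deleted factor, were found at 21 of 22 alpha-defensin promoters (95.5%), 12 of 42 beta-defensin promoters (28.6%) and 21.4% of all promoters. The word ATCAAA is contained in the TCF word ATCAAAG. Outside it, ARID3 words remained at 1 of 22 alpha-defensin promoters (4.55%), 12 of 42 beta-defensin promoters and 19.02% of all promoters. The words for the intestinal factor CDX (TTTATNG) were at 18 alpha-defensin (81.8%), 11 beta-defensin (26.2%) and 10.2% of all promoters. Each of the 18 alpha-defensin CDX words read CTATAAA on the strand of the gene. That word contains TATAAA, the letters of the TATA box, so the CDX and TATA box counts are not separate. AP-1 words (TGACTCA or TGAGTCA) were at 4 alpha-defensin and 1 beta-defensin promoter, against 4.59% of all promoters, and HNF4 words (CAAAGTCCA or CAAAGTTCA) at 0 of either family, against 0.839%. The alpha-defensin promoters are copies of one another and not separate observations. Only 19 of their 22 upstream sequences of 250 bases were distinct, because Defa21 and Defa22, Defa2 and Defa33, and Defa20 and Defa32 were identical. The closest other promoter of the same family matched by a median of 96.8% among alpha-defensin genes and 54.3% among beta-defensin genes. A word match describes the letters of the reference and says nothing of binding.

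**Figure D4:**
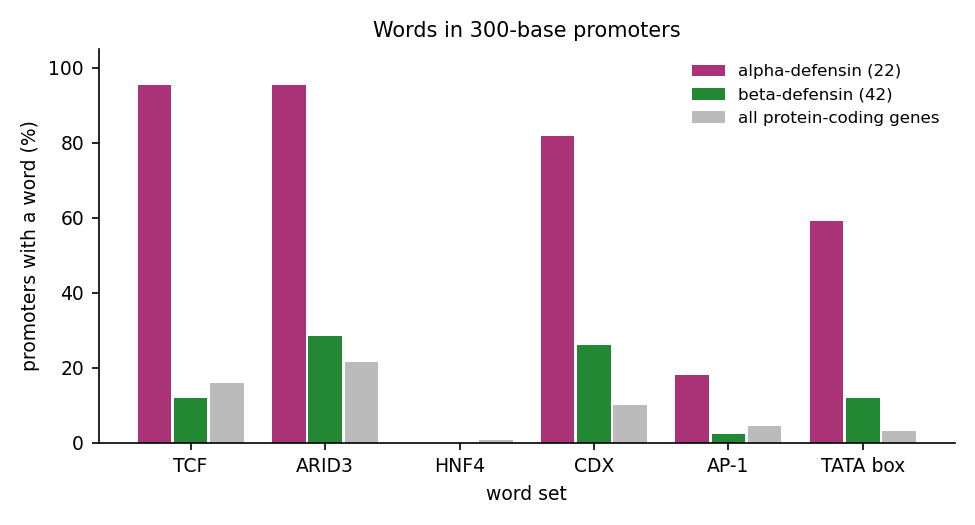
Percentage of promoters (y axis) that hold at least 1 word of each set (x axis), for 22 alpha-defensin, 42 beta-defensin and all 21938 protein-coding genes. TCF and ARID3 words, which overlap, each mark 95.5% of alpha-defensin promoters, and the TATA box marks 59.1%. CDX words mark 81.8% of them, and each contains the letters of the TATA box.

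Beta-defensin genes carried few peaks, most of them outside promoters. Of 42 genes, 3, 4 and 6 had a peak in the WT lists (7.14%, 9.52% and 14.3%), against 6, 5 and 6 in the cKO lists (14.3%, 11.9% and 14.3%). The mean was 10.3% ± 3.64 for wild-type and 13.5% ± 1.37 for knockout mice (SD, n = 3 each), and WT 3 matched the highest cKO samples. With lists of equal length the means were 8.73% for wild-type and 11.9% for knockout mice, and every cKO list lay above every WT list. The difference was 3.17 percentage points with full lists and with lists of equal length. Whether list length accounts for the overlap was not tested. The peaks themselves numbered 3, 4 and 7 for WT, against 6, 5 and 6 for cKO. In all, 7 of 42 beta-defensin genes (16.7%) had a peak in at least 1 list, 2 of them in 6 lists, against 72.0% and 59.2% of all protein-coding genes. Among protein-coding genes no longer than the longest defensin gene, 59.7% had one, and among the 17704 protein-coding genes at least 90% unique 80.4% had one. The genes with a peak were 0 of 2 on chromosome 1, 3 of 11 on chromosome 2, 3 of 24 on chromosome 8 and 1 of 5 on chromosome 14. In sequence, 29 of 42 beta-defensin genes were over 90% unique, against 0 of 22 alpha-defensin genes. Of these 29 beta-defensin genes, 24 had no peak in any list, and the reason was not tested. The difference in share between the families, alpha minus beta, averaged -11.9 percentage points ± 3.01 (SD, n = 6), and its sign follows from the alpha-defensin share of 0.

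The strongest defensin peak lay at the promoter of Defb37 (ENSMUSG00000053695.3, chr8:18986233-18991055, minus strand), in the first beta-defensin group of chromosome 8. It spanned chr8:18990606-18991583 over the 6 lists, and its summit lay 0.055 to 0.201 kb upstream of the gene, within or just beyond the 150 bases printed above. Fold enrichment was 8.22, 10.5 and 11.2 among WT lists, against 11.2, 10.8 and 11.03 among cKO lists, and these values overlapped. The percentile within its list was 78.1, 79.7 and 83.8 among WT lists, against 87.5, 83.9 and 91.3 among cKO lists. Every cKO percentile lay above every WT percentile, with WT 3 and cKO 2 almost level. The means were 80.5 ± 2.94 and 87.6 ± 3.67 (SD, n = 3 each), and an exact two-sided permutation test gave p = 0.1, the smallest that 3 samples against 3 allow, or p = 0.2 after Benjamini-Hochberg adjustment over the 2 defensin peaks tested. Among all 32748 consensus peaks called in 6 lists, 4.66% had every cKO percentile above every WT percentile and 7.04% the reverse.

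Defb45 (ENSMUSG00000062124.7, chromosome 2, minus strand) was the other gene with a peak in each list. The summit lay between genes, 4.12 to 4.50 kb beyond the 3′ end of Defb45 and 7.49 kb downstream of its TSS. Its percentile was 55.7, 46.3 and 31.7 among WT lists, against 74.5, 45.8 and 78.6 among cKO lists. The lists of cKO 1 and cKO 3 lay above the WT lists, and cKO 2 lay below WT 1 and WT 2. The means were 44.6 ± 12.1 and 66.3 ± 17.9 (SD, n = 3 each, exact two-sided permutation p = 0.3, Benjamini-Hochberg adjusted p = 0.3).

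**Figure D5:**
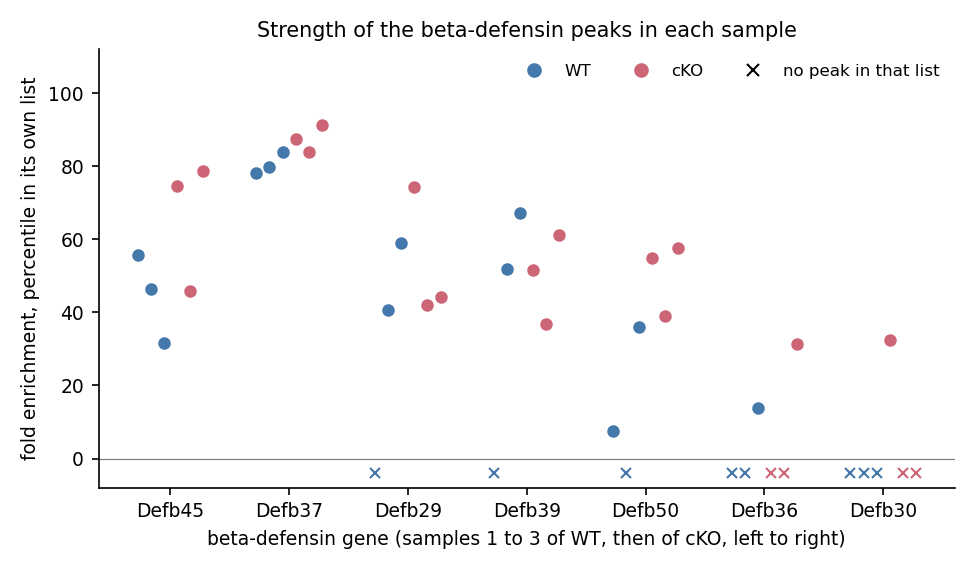
Fold enrichment as a percentile within its own list (y axis) for the peak at each of the 7 beta-defensin genes with a call (x axis), 1 point per sample, with crosses where a list had no peak. Defb37 lies highest in each of the 6 samples, and its cKO points (83.9 to 91.3) lie just above its WT points (78.1 to 83.8), while the genotypes overlap at Defb45, Defb29 and Defb39.

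The calls at 3 further genes were each missing from 1 WT list. The Defb29 peak (chromosome 2, intergenic, 4.83 kb upstream of the TSS) was absent from WT 1, had percentiles of 40.7 and 59.0 in WT 2 and WT 3, and of 74.2, 42.1 and 44.1 in the cKO lists. The Defb39 peak (chromosome 8, 1.34 kb upstream of the TSS) was also absent from WT 1, with percentiles of 51.9 and 67.3 in WT 2 and 3 and 51.6, 36.7 and 61.3 in the cKO lists. WT 3 held a second Defb39 peak, 962 bp beyond the other end of the gene, at percentile 19.5. The Defb50 peak (chromosome 8, 960 bp beyond the 3′ end) was absent from WT 2. Its percentile was 7.46 in WT 1 and 35.9 in WT 3, against 54.9, 39.1 and 57.8 in cKO lists, and in WT 1 its −log10 q was only 1.70. At Defb29 and Defb39 the genotypes overlapped, and at Defb50 the 3 cKO lists ranked above both WT lists with a call.

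The members called in the fewest lists were Defb36 and Defb30, named after their values were seen. The Defb36 peak was called in WT 3 and cKO 3 at percentiles 13.8 and 31.4, 3.04 kb beyond the 3′ end. The Defb30 peak was called in cKO 1 at percentile 32.4, 973 bp upstream of the TSS and inside the overlapping gene Defb42. It was the only defensin promoter peak other than that of Defb37, so 1 of 42 beta-defensin promoters (2.38%) was called in 5 lists and 2 of 42 (4.76%) in cKO 1. Both are shares of single lists. They lay below the 44.6% of all protein-coding genes with a promoter peak in 6 lists, a stricter measure that the share of any single list reaches or exceeds.

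The beta-defensins best known from barrier epithelia had no peak in any list. Defb1 is made constitutively by many epithelia, and Defb3, Defb4 and Defb14 are induced at skin and mucosal surfaces by microbes and inflammation. The nearest summit lay 9.29 to 19.8 kb from Defb1 across the 6 lists, 7.54 to 83.1 kb from Defb2, 129 to 302 kb from Defb3, 34.7 to 207 kb from Defb4 and 30.4 to 203 kb from Defb14. Their unique shares were 87.8%, 66.7%, 93.2%, 94.03% and 97.4%, in that order. The window of 5 kb therefore decided the outcome for neither Defb3, Defb4 nor Defb14. The assigned peak nearest the edge of the window was that of Defb29, with a summit at least 4.75 kb from the gene (median 4.83 kb). The nearest one outside the window for a gene with no call was that of Defb2, 7.54 kb away. Defb42 and Defb25 also had a summit in their windows in some lists, but it lay nearer to the TSS of a neighbor and was counted there, for Defb42 at Defb30 and for Defb25 at Rem1, which is no defensin gene.

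The genotypes were compared last by presence alone. None of the 8 consensus peaks at defensin genes was called in 3 of 3 samples of 1 genotype and 0 of 3 of the other. Among all 71286 consensus peaks, 0.464% were called in 3 of 3 cKO and no WT list, and 0.111% the reverse. At the level of genes the count was 0 of 64 as well, where 0.0638% of protein-coding genes had a peak in 3 of 3 cKO and 0 of 3 WT lists and 0.0547% the reverse. The lists hold only peaks past the calling threshold, so differences in signal below it were not measured here.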

How the data were processed

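The authors processed the reads with nf-core/atacseq (Trim Galore, BWA, MACS2 narrow peaks, mm10 blacklist) on GRCm38, each sample by itself. The blacklisted regions, read length and total reads were not used here, so depth per sample is unknown. Each deposited list gives a score, a fold enrichment ratio over local background, −log10 p and −log10 q values and the summit offset. Fold was ranked within its list, and q served as a filter.

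Nuclear peaks (chromosomes 1 to 19, X, Y) were assigned to GENCODE M21 genes. Words of 50 and 100 bases were counted over the primary assembly of GRCm38.p6 (at each base for defensin genes, every 100 bases for other genes). Lists were merged into consensus peaks where they shared 1 base. Python 3.11.15, numpy 2.4.6, pandas 2.3.3 and biopython 1.88 were used, and assignment, word counts and tests were tested on simulated data. Strengths of peaks called in 6 lists were compared by exact two-sided permutation over samples. Shares over the members are given without p. Named genes were beta-defensins with a peak in at least 3 lists, plus Defb1, Defb2, Defb3, Defb4 and Defb14. The members and lists were chosen with earlier results of these data known. Alternatives are given in the closing section.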

Additional observations from a re-analysis of the deposited data

How the results depend on the processing

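Under each other setting, the alpha-defensin counts stayed at 0 in both genotypes and the beta-defensin differences between genotypes moved by less than 1 SD between replicates. Only the alpha minus beta difference moved further, under 1 setting. With gene bodies alone in place of gene bodies plus 5 kb, the alpha minus beta difference was -0.397 percentage points, because each beta-defensin peak but the one in cKO 1 inside Defb42 lay outside the genes. It ran from -12.9 to -11.4 when 1 library was left out. Across the same fits the beta-defensin difference, cKO minus WT, ran from 1.59 to 5.16 percentage points. The fold percentile of alpha-defensin peaks had no value, since there were none. The same-numbered samples did not vary together (correlations of −0.311, 0.0143 and 0.127 over consensus peaks called in 6 lists), so the numbers were not taken as pairs. Taking the replicate number as a block cannot change the beta-defensin difference of 3.17 percentage points, because each number occurs once in each genotype. The checks on single peaks and the added clone-named genes were chosen after seeing the data. The Defb37 difference of 7.05 percentile points was 9.52 when only peaks with a −log10 q above 5 entered (exact permutation p = 0.2), 7.31 with lists of equal length (exact permutation p = 0.1) and 5.20 to 8.86 when 1 library was left out. The Defb45 difference of 21.7 points ran from 15.3 to 32.0 when 1 library was left out, the highest without cKO 2. Peak lists carry no total read numbers, so depth at each locus is unknown.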

Other observations

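The last summits before the alpha-defensin array lay by AY761185, a protein-coding gene on the minus strand before Defa21 that was looked at after its values were seen and that is not a defensin by its symbol. Within 5 kb upstream of it, 2, 2 and 1 peaks were called among the WT lists, against 0, 2 and 0 among the cKO lists. The highest fold percentile was 38.2, 32.7 and 44.6 in the wild-type mice and 34.8 in the only knockout mouse with a call, cKO 2. The calls were weak in each of these lists, with −log10 q of 5.34 to 7.65, and a difference between genotypes was not tested.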
